A study of Mus musculus with 2 samples.

Results

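The neurexins and neuroligins described here are 5 genes, Nrxn2 and Nrxn3 among the neurexins and Nlgn1, Nlgn2 and Nlgn3 among the neuroligins. They were chosen by name, through the Ensembl gene identifiers of the deposited tables, out of 43346 listed genes, and they hold 43 of 103639 listed transcripts. The rule used names and no measured value. The RNA was total RNA longer than 200 nucleotides from the forebrain of newborn B6NCrl mice (postnatal day 0), an inbred strain with no allele or treatment named. Each of 2 libraries was made by a Smart-seq protocol from 13 pg of RNA, an amount taken as 1 cell-equivalent, so the values describe a minute draw of whole-tissue RNA and not a cell. One library came from pup 1 and the other from pup 3, and a single donor identifier is attached to both in the labels. They form a single group with 1 library per pup. The difference between pups, the draw of RNA and the library preparation therefore cannot be told apart, and no test or p-value is given.

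Neurexins are presynaptic adhesion proteins that reach across the synaptic cleft, and neuroligins are postsynaptic partners that bind them. Each neurexin gene makes a long alpha form from an upstream start and a short beta form from an internal start, which share the membrane-spanning and cytoplasmic end. A small exon called splice site 4 decides which partners a neurexin prefers, and short inserts at sites A and B of the neuroligins tune the binding from the other side. Nlgn1 is known for excitatory synapses, Nlgn2 for inhibitory synapses and Nlgn3 for both.

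The sequences that tell the forms apart are shown first, because the results turn on which form received the reads. They were read from GENCODE M21 transcripts on GRCm38 (mm10), 5′ to 3′. The first set gives the opening 90 coding bases of an alpha and a beta transcript of each neurexin, on the plus strand, with the start codon in capitals. Alpha and beta proteins begin differently, at chr19:6428049-6428138 and chr19:6498279-6498368 for Nrxn2 and at chr12:88795185-88795274 and chr12:89813400-89813489 for Nrxn3.
Nrxn2 alpha start: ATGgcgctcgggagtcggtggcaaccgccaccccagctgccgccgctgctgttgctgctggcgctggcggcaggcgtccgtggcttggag
Nrxn2 beta start: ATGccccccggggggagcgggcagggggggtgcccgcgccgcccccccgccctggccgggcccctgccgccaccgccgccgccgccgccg
Nrxn3 alpha start: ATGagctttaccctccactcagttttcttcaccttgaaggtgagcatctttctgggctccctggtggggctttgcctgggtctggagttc
Nrxn3 beta start: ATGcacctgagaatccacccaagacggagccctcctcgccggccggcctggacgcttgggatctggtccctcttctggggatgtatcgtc

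The second sequence is the 90-base exon of splice site 4 in Nrxn3, shown because transcripts with and without it both had reads, with the exon in capitals and the 15 spliced bases on either side in lower case. The exon lies at chr12:90199147-90199236 on the plus strand.
Nrxn3 splice site 4: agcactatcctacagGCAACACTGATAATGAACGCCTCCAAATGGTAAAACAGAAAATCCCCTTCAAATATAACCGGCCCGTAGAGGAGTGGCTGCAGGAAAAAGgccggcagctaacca

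The third set gives the neuroligin inserts, marked in the same way. In Nlgn1 they are the 60-base exon of site A (chr3:25920178-25920237, minus strand) and the 27-base exon end of site B (chr3:25439865-25439891, minus strand). Nlgn2 has a 51-base exon at site A (chr11:69830563-69830613, minus strand), and Nlgn3 has 2 optional 60-base exons there (chrX:101303072-101303131 and chrX:101307075-101307134, plus strand). The site A exon of Nlgn1 matched the downstream exon of Nlgn3 at 43 of 60 positions (71.7%) and the upstream one at 16 of 60 (26.7%).
Nlgn1 site A: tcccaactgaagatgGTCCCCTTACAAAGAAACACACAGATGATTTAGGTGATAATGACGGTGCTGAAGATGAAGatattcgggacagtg
Nlgn1 site B: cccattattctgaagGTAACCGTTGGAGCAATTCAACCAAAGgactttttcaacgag
Nlgn2 site A: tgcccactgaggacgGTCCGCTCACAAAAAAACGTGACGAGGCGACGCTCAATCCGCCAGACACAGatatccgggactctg
Nlgn3 site A, upstream exon: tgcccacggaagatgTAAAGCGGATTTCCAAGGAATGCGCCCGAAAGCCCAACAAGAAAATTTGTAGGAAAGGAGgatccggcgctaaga
Nlgn3 site A, downstream exon: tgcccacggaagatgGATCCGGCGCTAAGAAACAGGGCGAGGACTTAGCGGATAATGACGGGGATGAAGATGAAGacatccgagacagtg

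The libraries held 41082811 expected reads in pup 1 and 29881397 in pup 3, where an expected read is one shared out among the features it fits. At 1 TPM or more (a level per transcript length, with 1 fixed total per library), 9048 nuclear protein-coding genes were found in pup 1 and 6210 in pup 3. Spike-in RNA took 4.46% and 7.30% of TPM, and mitochondrial genes 5.02% and 6.003%. The forebrain label was checked on markers: all 6 pan-neuronal, 4 telencephalic and 4 glial genes were found in both pups, and none of 4 genes of other tissues was found in either, with Hoxa4, Hoxc8 and Alb at 0 reads.

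Of the 5 genes, 4 were found in both pups, and Nlgn2 was found in pup 1 only. Over all 21461 nuclear protein-coding genes, 24.7% were found in both. In pup 1 the highest of the 5 was Nlgn3 at 97.7 TPM and in pup 3 it was Nrxn2 at 113 TPM, so the order differed between the libraries. The mean levels ran from Nrxn2 at 72.4 ± 58.0 TPM, through Nlgn3 at 55.3 ± 60.03, Nlgn1 at 53.6 ± 35.8 and Nrxn3 at 51.7 ± 48.8, to Nlgn2 at 6.81 ± 9.63 (SD, n = 2 for each). No neighbours in that order differed beyond their spread. By reads, which take no account of transcript length, Nrxn2 was instead the lowest of the 5 in pup 1, at 1517. In pup 3 it was the lowest of the 4 genes found, at 1415 reads. In bulk RNA, fewer cells that use a gene and less RNA per cell cannot be told apart.

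All 5 genes lay 2-fold or more apart between the pups in TPM: Nrxn2, Nrxn3 and Nlgn1 were higher in pup 3, and Nlgn2 and Nlgn3 were higher in pup 1. Among the 9953 genes found in either pup, 23.5% were at least 2-fold higher in pup 3 and 49.6% at least 2-fold higher in pup 1. The median log2 ratio of TPM + 1, pup 3 to pup 1, was 1.45 over the 5 genes and -0.92 over those 9953, whose SD was 2.96. On CPM, which is reads scaled to the library total and takes no account of length, 3 of the 5 stayed 2-fold apart: Nrxn3 was higher in pup 3, and Nlgn2 and Nlgn3 in pup 1. On that scale 25.7% of the 9953 genes were at least 2-fold higher in pup 3 and 48.1% in pup 1. Nrxn2 and Nlgn1 did not stay apart, and the sections on each gene give both scales.

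**Figure D1:**
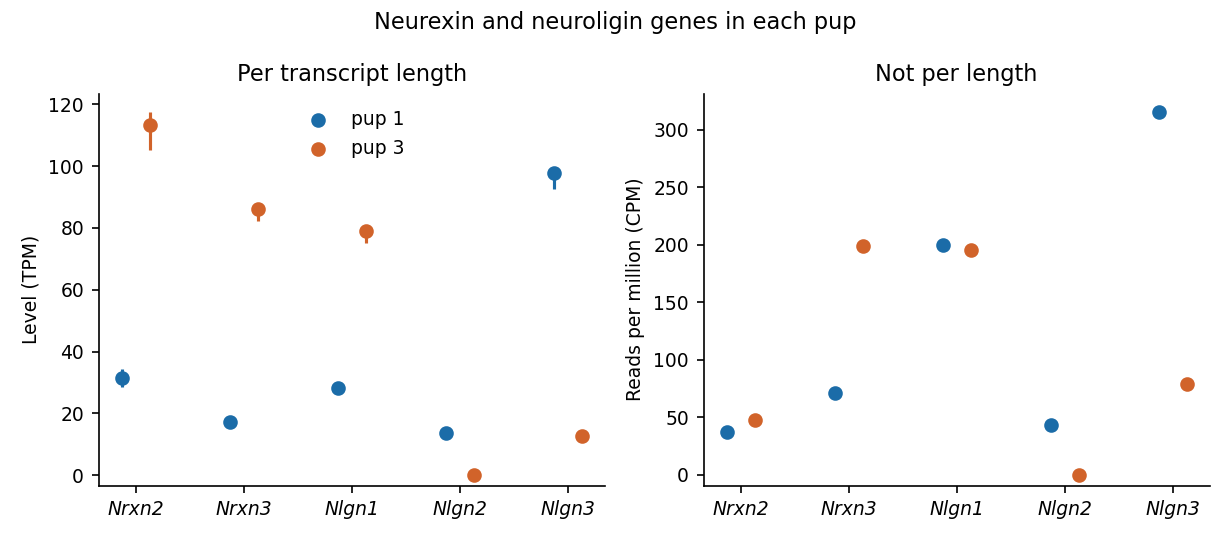
Each point is 1 library, pup 1 in blue and pup 3 in orange, for the 5 genes; the left axis is TPM with the deposited credibility bounds as vertical lines, and the right axis is CPM. Nlgn1 lies at 28.3 and 78.9 TPM but at 199.5 and 195.7 CPM, while Nlgn3 is higher in pup 1 on both axes.

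Nrxn2 (ENSMUSG00000033768, chr19:6418731-6544169, plus strand) had 31.4 TPM in pup 1, with deposited credibility bounds of 28.4 and 34.4, and 113 TPM in pup 3, with bounds of 105 and 118. The log2 ratio of TPM + 1 was 1.82 in favour of pup 3. The reads behind these levels were nearly equal in number, 1517 in pup 1 and 1415 in pup 3, or 36.9 and 47.4 CPM, a 1.28-fold difference. What differed was the length assigned to them. The average Nrxn2 transcript, weighted by TPM, was 1922 bases in pup 1 and 638 bases in pup 3.

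In both pups most Nrxn2 TPM went to Nrxn2-213, a processed transcript of 576 bases and 3 exons with no annotated protein (chr19:6517205-6532296). It took 270 reads, 21.3 TPM and 68.0% of the gene's TPM in pup 1, and 1227 reads, 111 TPM and 97.9% in pup 3. Every one of its 477 windows of 100 bases also occurs in an alpha transcript and 379 occur in the beta transcript, so no window of its sequence is its own. Windows of 100 bases were used because the tables set effective length to listed length minus 99. The reads given to Nrxn2-213 are therefore reads near the 3′ coding end of Nrxn2 that no window of that length ties to it alone.

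The protein-coding forms of Nrxn2 received fewer reads in pup 3 than in pup 1. An alpha transcript was defined as protein-coding with 1000 or more codons, and a beta transcript as a shorter one that starts downstream and reaches the same stop codon. The alpha transcripts Nrxn2-201 (6059 bases) and Nrxn2-208 (6314 bases) had 494 and 287 reads in pup 1, or 3.13 and 1.74 TPM, and none in pup 3. The beta transcript Nrxn2-202 (3503 bases) had 466 reads and 5.16 TPM in pup 1, and 189 reads and 2.39 TPM in pup 3. Alpha transcripts thus held 48.6% of alpha plus beta TPM in pup 1 and 0% in pup 3.

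By reads, the alpha share of Nrxn2 was 62.6% of 1247 in pup 1, with an exact (Clopper-Pearson) 95% binomial interval of 59.9% to 65.3%. In pup 3 it was 0 of 189 reads, where a count of 0 allows up to 3 reads, or 1.59%. Both shares leave out the reads given to Nrxn2-213, 270 in pup 1 and 1227 in pup 3. Every window of that transcript also occurs in an alpha transcript, so the interval and the floor do not bound the alpha share. Apart from transcripts of neither class, 1529 windows occur only in alpha and 7 only in beta transcripts of Nrxn2. Such intervals and floors treat expected reads as independent counts. Copies of a molecule made by amplification were not told apart by identifiers, and reads were shared out among transcripts. Neither source of error is covered, so the intervals are too narrow. The other 11 of 15 listed Nrxn2 transcripts had 0 reads in both pups.

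Nrxn3 (ENSMUSG00000066392, chr12:88722876-90334935, plus strand), a gene that spans over a megabase, had 17.1 TPM in pup 1 and 86.2 TPM in pup 3. Its log2 ratio of TPM + 1 was 2.27 in favour of pup 3. Unlike Nrxn2, it also had more reads there: 2931 in pup 1 and 5937 in pup 3, or 71.3 and 198.7 CPM. The TPM-weighted length was 6547 bases in pup 1 and 3071 in pup 3, 2.13 times longer in pup 1.

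The form of Nrxn3 that received the reads differed between the pups. In pup 1 the alpha transcript Nrxn3-205 (7922 bases, 1571 codons) had 2683 reads and 12.9 TPM, which was 75.4% of the gene. In pup 3 it had 0 reads, with a deposited upper bound of 0.0224 TPM. The beta transcript Nrxn3-203 (2699 bases, 430 codons) had 160 reads and 2.32 TPM in pup 1, and 3427 reads and 56.9 TPM in pup 3. The beta transcript Nrxn3-202 (3654 bases, 567 codons) had 0 reads in pup 1 and 1732 reads, or 21.03 TPM, in pup 3.

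Summed by class, Nrxn3 alpha transcripts had 12.9 TPM and beta transcripts 2.32 TPM in pup 1, an alpha share of 84.8%. In pup 3 alpha transcripts had 1.60 TPM and beta transcripts 77.9 TPM, an alpha share of 2.01%. By reads the alpha share was 94.4% of 2843 in pup 1 (exact 95% interval 93.5% to 95.2%) and 2.25% of 5278 in pup 3 (1.87% to 2.69%). The 2 intervals do not overlap, but they take reads as independent and leave out amplification and the sharing of reads. How far the shares would vary between further libraries of 13 pg was not measured.

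The alpha reads of pup 3 were all given to Nrxn3-210, an annotated transcript of 3303 bases that starts inside the gene but has 1100 codons. None of its 3204 windows is its own, and its deposited bounds in pup 3 were 0.00103 and 1.65 TPM. The class difference itself rests on more sequence: 6066 windows occur in alpha but not beta transcripts of Nrxn3, and 1454 in beta but not alpha transcripts. Leaving out windows that also occur in transcripts of neither class, 1875 are only in alpha and 1349 only in beta transcripts. Nrxn3-208 (6944 bases), an alpha-length transcript annotated for nonsense-mediated decay and so left out of the classes, had 68 reads and 0.38 TPM in pup 1, and 514 reads and 3.24 TPM in pup 3. Counted as alpha, a choice made after seeing the data, it raised the alpha share of pup 3 to 5.85% of TPM and 10.9% of 5792 reads (exact 95% interval 10.1% to 11.8%), against 85.1% of TPM and 94.5% of 2911 reads in pup 1. Nrxn3-204, a retained-intron transcript at the 5′ end of the gene, had 0 reads in pup 1 and 136 reads, or 2.69 TPM, in pup 3. Transcripts that reach the upstream end of the gene were thus credited with reads in pup 3 as well.

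**Figure D2:**
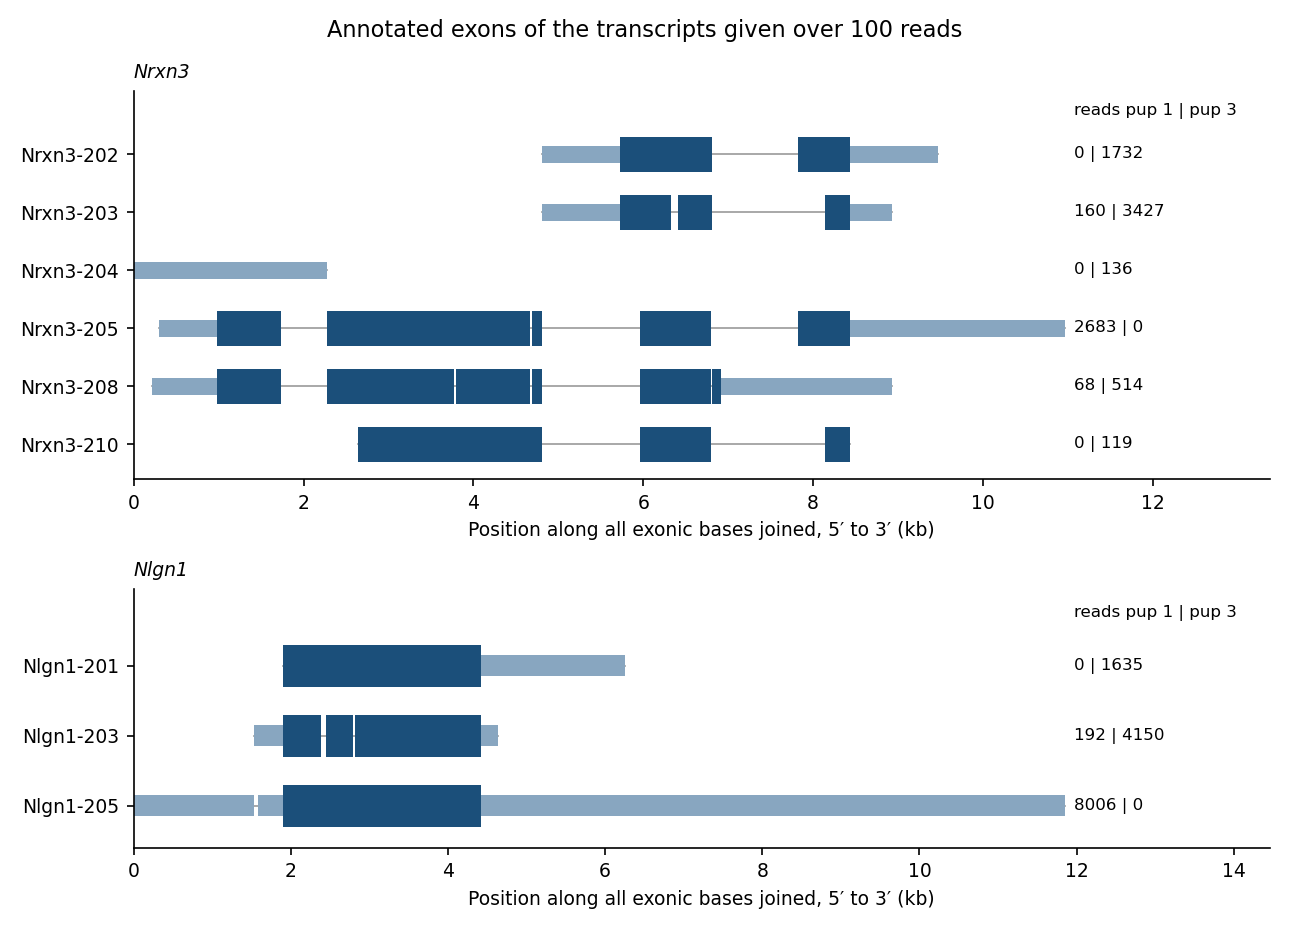
Exons of the Nrxn3 and Nlgn1 transcripts given over 100 reads in either pup, drawn along all their exonic bases joined 5′ to 3′ in kilobases, with coding exons as tall dark boxes and the rest as pale boxes; the numbers at the right are reads in pup 1 and pup 3. In pup 1 the reads sit on Nrxn3-205 (2683) and Nlgn1-205 (8006), and in pup 3 on shorter transcripts such as Nrxn3-203 (3427) and Nlgn1-203 (4150).

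Splice site 4 of Nrxn3 followed the transcripts. Those that hold its 90-base exon, the sequence printed above, had 13.3 TPM in pup 1 and those that skip it 2.32 TPM, a share of 85.1%. In pup 3 the holders had 25.9 TPM and the skippers 56.9 TPM, a share of 31.3%. By reads the shares were 94.5% (exact 95% interval 93.6% to 95.3%) and 40.8% (39.6% to 42.1%). The tables give reads per transcript and not per exon junction, so these shares say which annotated transcripts were credited, not how many reads crossed the exon.

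Nlgn1 (ENSMUSG00000063887, chr3:25426215-26332460, minus strand) had 28.3 TPM in pup 1 and 78.9 TPM in pup 3, a log2 ratio of TPM + 1 of 1.45 in favour of pup 3. Its share of reads was almost the same in both pups: 8198 reads or 199.5 CPM in pup 1, and 5847 reads or 195.7 CPM in pup 3. On log2(CPM + 1) the ratio was -0.028, so the direction of the TPM difference did not hold on reads. The TPM-weighted length was 11033 bases in pup 1 and 3299 bases in pup 3, a 3.34-fold difference.

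Nearly all Nlgn1 reads of pup 1, 8006, were given to Nlgn1-205, an 11807-base transcript of 843 codons with long untranslated ends, at 25.8 TPM. In pup 3 it had 0 reads, with a deposited upper bound of 0.0281 TPM. Nlgn1-203 (3013 bases, 814 codons) had 192 reads and 2.49 TPM in pup 1, and 4150 reads and 61.5 TPM in pup 3. Nlgn1-201 (4359 bases, 843 codons) had 0 reads in pup 1 and 1635 reads, or 16.6 TPM, in pup 3. Of the 11708 windows of Nlgn1-205, 6186 occur in no other listed Nlgn1 transcript, whereas Nlgn1-203 has 40 windows of its own and Nlgn1-201 has 0.

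Nlgn1-205 and Nlgn1-201 hold both the site A and the site B insert, and Nlgn1-203 lacks both. Transcripts with the inserts had 25.8 TPM against 2.49 TPM without them in pup 1, a share of 91.2%. In pup 3 they had 16.6 TPM against 61.5 TPM, a share of 21.2%. By reads the shares were 97.7% (exact 95% interval 97.3% to 98.0%) and 28.3% (27.1% to 29.4%). The 2 sites gave the same values because the transcripts with reads carry both inserts or neither, so the sites were not measured separately.

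Nlgn2 (ENSMUSG00000051790, chr11:69823122-69837784, minus strand) had 13.6 TPM and 1779 reads in pup 1 and was listed at 0 TPM with 0 reads in pup 3. The deposited upper bound in pup 3 was 0.594 TPM. On reads it had 43.3 CPM in pup 1, and a count of 0 allows up to 3 reads over the library of pup 3, or 0.1004 CPM. A gene with 0 reads in 1 pup was common in these libraries: of 6772 genes with a mean of 5 to 100 TPM, 31.6% had 0 reads in 1 of the pups. In pup 1 Nlgn2-201 (5003 bases, 836 codons) held 1711 reads and 13.2 TPM, and Nlgn2-202, with the same number of codons, 68 reads and 0.47 TPM. Both carry the 51-base insert of site A, so all 1779 reads of pup 1 fell to transcripts that hold it.

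Nlgn3 (ENSMUSG00000031302, chrX:101299168-101325963, plus strand) stood at 97.7 TPM (12972 reads) in pup 1 and at 12.8 TPM (2351 reads) in pup 3. It was 7.62-fold higher in pup 1 in TPM and 4.01-fold higher in CPM, at 315.8 and 78.7. Its log2 ratio of TPM + 1 was -2.84. The TPM-weighted length was 5101 bases in pup 1 and 8004 in pup 3, longer in pup 3, which is opposite to Nrxn2, Nrxn3 and Nlgn1.

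The reads of Nlgn3 in pup 1 were spread over 4 transcripts and in pup 3 fell to 1. In pup 1 Nlgn3-201 (8465 bases, 825 codons) had 9982 reads and 45.0 TPM, and Nlgn3-203 (1852 bases, 510 annotated codons) had 1791 reads and 38.5 TPM. Nlgn3-202 (8004 bases, 711 codons) had 1068 reads and 5.09 TPM in pup 1, and all 2351 reads and 12.8 TPM in pup 3. Nlgn3-204, a 636-base processed transcript, had 131 reads and 9.17 TPM in pup 1 but 0 reads in pup 3. Nlgn3-201 has no window of its own among all Nlgn3 transcripts; set against Nlgn3-202 alone, it has 587 windows that Nlgn3-202 lacks, and Nlgn3-202 has 126 that it lacks.

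The 2 optional exons of Nlgn3 at site A differed. The upstream exon, which matched Nlgn1 at 26.7% of positions, was in no transcript with reads in either pup. The downstream exon, which matched at 71.7%, was in transcripts with 50.1 TPM against 38.5 TPM without it in pup 1, a share of 56.5%. In pup 3 all 12.8 TPM came from a transcript that holds it. By reads the share was 86.1% in pup 1 (exact 95% interval 85.4% to 86.6%) and 2351 of 2351 in pup 3. The transcript without it in pup 1 was the short Nlgn3-203.

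**Figure D3:**
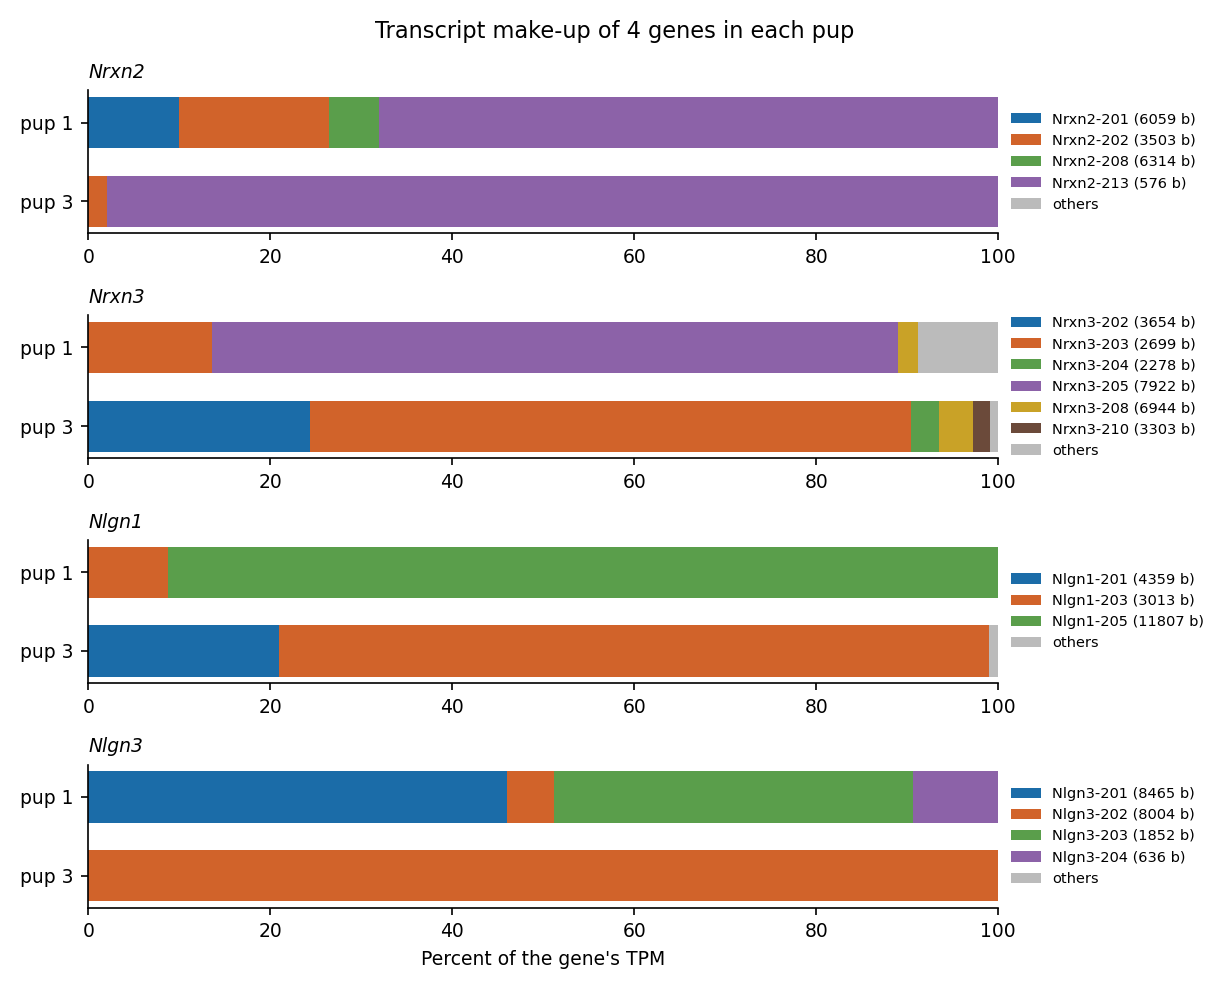
Bars show the percent of each gene's TPM held by each transcript in pup 1 and pup 3, for the 4 genes found in both pups; transcripts at 1 TPM or more in either pup have a colour, with listed lengths in bases, and the rest are grey. Nrxn2-213 leads Nrxn2 in both pups (68.0% and 97.9%), while the leading transcript of the other 3 genes differs between pups.

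Over the 43 listed transcripts, 13 reached 1 TPM in pup 1, 10 reached it in pup 3 and 18 in either, and 19 had 0 reads in both. The same counts were not computed over all 103639 listed transcripts. Whether they are particular to the neurexins and neuroligins was therefore not tested. The transcript with the highest TPM differed between pups in 3 of the 4 genes found in both, namely Nrxn3, Nlgn1 and Nlgn3. Among 4049 genes with 2 or more listed transcripts found in both pups, it differed in 36.3%. Ranked by expected reads instead, the leading transcript differed in all 4 genes, Nrxn2 included. No share over all genes was computed on that scale, since the 36.3% is on TPM. The TPM-weighted length was 2-fold or more longer in pup 1 for Nrxn2, Nrxn3 and Nlgn1, which is 3 of 4, against 8.47% of the 4049 genes. It was 2-fold or more longer in pup 3 for none of the 4, against 2.79%. The median log2 ratio of length over all 4049 was 0.00 with an SD of 0.64.

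**Figure D4:**
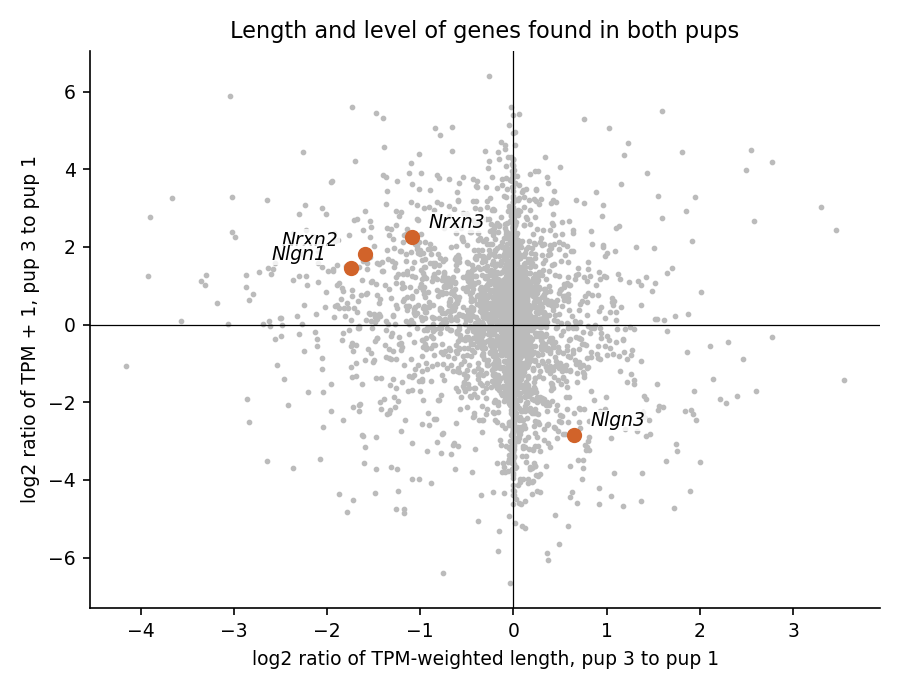
Each grey point is a gene with 2 or more listed transcripts found in both pups; the x axis is the log2 ratio of TPM-weighted length and the y axis the log2 ratio of TPM + 1, both pup 3 to pup 1. Nrxn2, Nrxn3 and Nlgn1 lie at upper left, shorter and higher in pup 3 (log2 TPM ratios of 1.82, 2.27 and 1.45), and Nlgn3 lies at lower right (-2.84). TPM is taken per length, so a shorter assigned length raises it by construction and the axes are not independent. On CPM, pup 3 to pup 1, Nrxn2 was 1.28-fold and Nlgn1 0.98-fold.

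The known partners of neurexins and neuroligins were read from 6 lists with 93 genes in all. Of these, 45 were found in both pups (48.4%, against 24.7% of all nuclear protein-coding genes). The rest were 34 found in pup 1 only, 2 in pup 3 only and 12 in neither. Over all 21461 genes, 3743 were found in pup 1 only, 905 in pup 3 only and 11508 in neither. Among genes found in either pup, those found in both were 45 of 81 in the lists and 5305 of 9953 over all genes. Of the 81 list genes found in either pup, 53 were 2-fold or more higher in pup 1 and 13 in pup 3, with background shares of 49.6% and 23.5%. Their median log2 ratio of TPM + 1 was -2.13, and that of all genes found in either pup was -0.92. The summed TPM of the 6 pan-neuronal markers was likewise lower in pup 3, at 11048 in pup 1 and 5496 in pup 3, while the glial sum was 3058 and 3748 and the telencephalic sum 334 and 507. Their part in the values of the lists was not tested.

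Among 21 extracellular partners, 10 were found in both pups, 6 in pup 1 only and 5 in neither. Clstn3, an alpha-neurexin-binding calsyntenin, had 110.8 TPM in pup 1 and 49.4 TPM in pup 3. Nxph1, a secreted neurexophilin that binds alpha-neurexins, was one of 3 in the list that were 2-fold or more higher in pup 3, at 43.9 and 108 TPM. Lrrtm4, a postsynaptic leucine-rich repeat protein, had 52.4 and 14.9 TPM. Lrrtm3 and Nxph2 had 29.3 and 21.3 TPM in pup 1 but 0 reads in pup 3.

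Of 9 presynaptic partners that bind the neurexin tail or its adaptors, 6 were found in both pups and 3 in pup 1 only. Lin7c, a small adaptor that joins CASK, had 294 TPM in pup 1 and 206 TPM in pup 3. Apba2 (Mint2), an adaptor protein, had 205 TPM in pup 1 from 13641 reads and 0.88 TPM in pup 3 from 23 reads. Lin7a and Lin7b were listed at 19.0 and 64.9 TPM in pup 1 but 0 reads in pup 3.

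Of 18 postsynaptic scaffolds, which anchor neuroligins and receptors, 5 were found in both pups (27.8%, near the 24.7% of all genes), with 10 in pup 1 only, 2 in pup 3 only and 1 in neither. Gphn (gephyrin), the scaffold of inhibitory synapses, had 0.19 TPM from 16 reads in pup 1 and 97.5 TPM from 7221 reads in pup 3. Lhfpl4, which joins Nlgn2 to inhibitory receptors, went the other way, at 23.7 TPM in pup 1 but 0 reads in pup 3. Nlgn2, like Lhfpl4 and unlike Gphn, had reads in pup 1 and none in pup 3. On the excitatory side, Dlgap4 had 348 TPM in pup 1 but 0 reads in pup 3, and Dlgap1 had 5.74 and 55.1 TPM. Dlg2, Dlg3, Dlgap2 and Shank3 had 10.1 to 26.6 TPM in pup 1 but 0 reads in pup 3.

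Of 7 genes for proteases that cleave neurexins or neuroligins, 3 were found in both pups, 2 in pup 1 only and 2 in neither. Adam10, a sheddase, had 39.0 and 18.6 TPM. Of the gamma-secretase subunits, Aph1a had 62.2 and 41.5 TPM, and Psenen had 134 TPM in pup 1 but 0 reads in pup 3.

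Among 10 splicing regulators of neurexin and neuroligin exons, 5 were found in both pups and 5 in pup 1 only. Ptbp2, a splicing repressor of young neurons, had 104 TPM in pup 1 and 62.5 TPM in pup 3, and Rbfox1 had 138 and 17.9 TPM. Ptbp1, the relative of Ptbp2 in progenitors, had 124 TPM in pup 1 but 0 reads in pup 3. Khdrbs2 (SLM1), which acts on splice site 4 of neurexins, had 39.2 TPM in pup 1 but 0 reads in pup 3. Its relative Khdrbs3 (SLM2) was the only gene of the list 2-fold or more higher in pup 3, at 7.27 and 41.4 TPM from 345 and 1716 reads. The other direction was more common: 7 of the 10 were 2-fold or more higher in pup 1, where the share over all genes found in either pup was 49.6%. Among those 7 was Khdrbs1, at 72.2 and 17.5 TPM from 6270 and 1472 reads. Khdrbs3 and Khdrbs1 were named here after their values were seen, and a link to the splice site 4 shares was not tested. Nova1 and Rbfox3 were at 0 reads in pup 3, with 12.4 and 13.1 TPM in pup 1.

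Of 28 other synaptic organizers, 16 were found in both pups, 8 in pup 1 only and 4 in neither. Cadm1, an adhesion molecule that pairs across the cleft, had 371 and 225 TPM. Ptprd, a presynaptic receptor phosphatase that acts beside neurexins, had 66.2 and 60.8 TPM, but 43.3 and 116 CPM, and Flrt3 had 54.0 and 95.7 TPM. Ntrk3, Slitrk3 and Elfn2 had 10.4 to 31.5 TPM in pup 1 but 0 reads in pup 3.

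**Figure D5:**
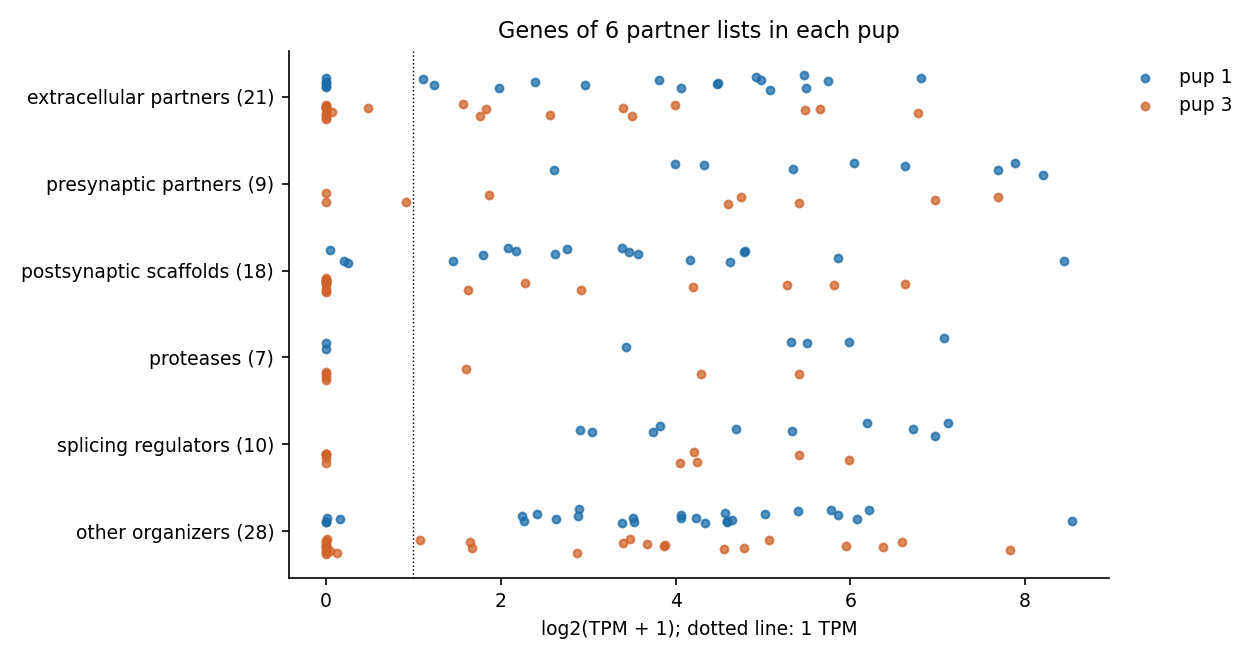
Each point is a gene of a partner list in 1 pup, with its level as log2(TPM + 1) on the x axis, the list and its number of genes on the y axis, and the dotted line at 1 TPM. More genes lie at 0 in pup 3 than in pup 1 in every list. In the lists 34 of the 93 genes were found in pup 1 only and 2 in pup 3 only. Over all 21461 nuclear protein-coding genes these counts were 3743 and 905.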

How the data were processed

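Forebrain RNA of 2 newborn pups was measured in 1 library each. The authors deposited tables per gene and per transcript made on mm10 with annotation M4, per the text file beside them. The columns are those RSEM writes, per the file headers: expected counts (estimated reads, multi-mapped reads shared out), TPM with a posterior mean, deposited credibility bounds (the upper one recorded as a signal because its sum passes that of TPM, and used only as a limit), FPKM, and the deposited percent of gene TPM per transcript. TPM was scaled over all features, spike-ins included. The aligner, versions and strand setting are not given in the sources used, so antisense or overlapping genes may share reads. Because expected counts are apportioned among transcripts, values of forms with little sequence of their own are uncertain.

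From these, CPM was computed from expected counts over the library total, and log2 ratios used a pseudocount of 1, which understates changes of low genes. A gene was found at 1 TPM or more. Names, classes and sequence came from GENCODE M21, matched by identifier: 42462 of 43346 genes (98.0%) matched, and 42 of 43 member transcripts had the same length. TMM factors came from edgeR 4.0.16. Python 3.11.15, pandas 2.3.3 and scipy 1.17.1 did the rest, checked on simulated data.

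The members and lists were chosen with earlier results of these data known. Named genes are the 5 members, their transcripts that reached 1 TPM in a pup, the 3 highest of each list by mean TPM, and any list gene at 10 TPM or more in one pup with 0 reads in the other; some of these are not reported here. Alternatives were other units, pseudocounts, detection limits, class rules and leaving out each replicate.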

Additional observations from a re-analysis of the deposited data

How the results depend on the processing

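Of 99 alternative values, 84 stayed within the limit set for their kind, 13 moved and 2 reversed. For mean levels and mean alpha shares that limit was 1 SD between the pups, which is wide. With 2 pups, leaving out 1 can never move a mean by that much, so those alternatives were bound to count as staying. Leaving out a pup took the mean of Nlgn2 from 6.81 TPM to 0 or 13.6. It took the mean alpha share of Nrxn3 from 43.4% to 2.01% or 84.8%, and that of Nrxn2 from 24.3% to 0% or 48.6%. Class by length alone took the mean alpha share of Nrxn2 to 7.76%. The 2 that reversed were the log2 ratio of Nlgn1, pup 3 to pup 1, at -0.028 on CPM with library totals and -0.24 with TMM factors, against 1.45 on TPM. On the same 2 scales the ratio was 0.35 and 0.14 for Nrxn2, 1.46 and 1.25 for Nrxn3, -5.47 and -5.62 for Nlgn2, and -1.99 and -2.20 for Nlgn3. CPM takes no account of length, which by its construction separates it from TPM where the assigned lengths differ. For Nlgn2, with 0 reads in pup 3, the ratio was -7.10 with a pseudocount of 0.1 and -4.00 with TPM rescaled without spike-ins and mitochondrial genes, against -3.87. The alpha share of Nrxn2, pup 1 minus pup 3, was 15.5 percentage points when class was set by listed length alone (4000 bases) and 48.6 by codons; length alone counts Nrxn2-213 as short. Partner genes found in both pups numbered 28 at 5 TPM, 45 at 1 TPM and, with 1 replicate left out, 47 to 79, the latter from pup 1 alone. The alternatives with nonsense-mediated decay transcripts in the alpha class, and with insert shares by reads or posterior mean, were added after seeing the data. The leading transcript could not be compared with a replicate left out. No paired analysis was possible because there is 1 group. At 13 pg of input, a transcript missing from a library was not detected in that draw, which does not show its absence from the forebrain.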
